A study of Mus musculus with 3 samples.

Results

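The transcripts of 10 circadian clock genes, Arntl, Clock, Per1, Per2, Per3, Cry1, Nr1d1, Nr1d2, Dbp and Tef, were examined in islet graft-bearing spleens. The genes were taken by name, as every probe on the array that carried 1 of these names. This gave 13 probes for the 10 genes, among 55681 probes for 34797 gene names on the array. Of these, 11 probes for 9 genes were well above background on at least 1 array, as were 32108 probes for 22851 genes in all. The probe of Cry1 was not well above background on any array.

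RNA came from the spleens of male C57BL/6 mice (C57BL/6J in the labels) made diabetic with streptozotocin. Every recipient received 25 syngeneic islets by splenic puncture and 100 under the capsule of the kidney (SP25+KC100), although the characteristics in the labels name the capsular graft for Sample 3 alone. Sample 1 was harvested immediately after transplantation (day 0), Sample 2 on day 2, and Sample 3 on day 139, after the kidney with its graft had been removed on day 100. Each sample was hybridized to 1 one-color array of 60-base probes, and all 3 arrays lay on 1 slide. No sample came from an ungrafted or non-diabetic mouse. The number of mice behind each array and the hour at which each spleen was collected are not given in the labels or the methods, and the methods give 1 age range for the mice of the study but not the age of each sample at harvest. With 1 array per condition there were no replicates, so no p-value was computed, and the hour of collection, the age of the mice, the nephrectomy and the time after transplantation cannot be told apart. The arrays are shared between comparisons, so the ratios of Sample 3 over Sample 1 and over Sample 2 are not independent.

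The circadian clock is a feedback loop of transcription that runs in almost every cell, including those of the spleen. ARNTL (also called BMAL1) and CLOCK bind together to E-boxes and switch on the Per, Cry, Nr1d, Dbp and Tef genes; PER and CRY proteins then repress ARNTL and CLOCK, while NR1D1 and NR1D2 (the REV-ERB nuclear receptors) repress Arntl. DBP and TEF are activators of the PAR bZIP family that act through D-boxes, where NFIL3 represses. In mouse tissues Arntl transcripts peak in the opposite part of the day from those of Per1, Per2, Per3, Nr1d1, Nr1d2, Dbp and Tef, whereas Clock varies little and Cry1 peaks late. Per1 is in addition induced quickly by glucocorticoids and by cAMP signaling.

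The 250 bases before each start site were searched for these elements in 14 RefSeq promoter windows (GRCm38.p6), which covered 9 of the 10 genes. Per2 had no entry. Both strands were searched. The E-box CACGTG occurred in 6.02% of all 32851 windows of this length and in 4 of the 14, from Per1, Cry1 and Tef. The second window of Per1 held no match and is not shown. The related CACGTT occurred in 3.85% of all windows and in those of Cry1 and Nr1d1. The D-box TTATGTAA occurred in 0.819% of all windows and, among these genes, in that of Per3, at 2 places. The D-box TTACGTAA (0.113% of all windows), the cores TAGGTCA (2.23%) and TGGGTCA (3.24%) of the element bound by the REV-ERB receptors, and the cAMP response element TGACGTCA (1.55%) had no match in the 14 windows. The windows of Dbp and Per1, which differed most between the samples among the genes well above background on all 3 arrays, and of a gene with each of the other elements, Nr1d1 and Per3, are shown 5′ to 3′ with the matches in capitals. They lie at chr7:45704997-45705246 on the plus strand (Dbp), chr11:69098699-69098948 on the plus strand (Per1), chr11:98775378-98775627 on the minus strand (Nr1d1) and chr4:151044666-151044915 on the minus strand (Per3). Counting back from -1 for the base before the start site, the E-box of Per1 lies at -166 to -161. In Nr1d1 the capitals mark CACGTT read on the other strand, at -28 to -23. The D-boxes of Per3 lie at -205 to -198 and at -158 to -151. The window of Dbp held none of these letters. Sites further upstream or after the start site were not searched. A window without a match therefore does not show that a gene lacks the element.
Dbp: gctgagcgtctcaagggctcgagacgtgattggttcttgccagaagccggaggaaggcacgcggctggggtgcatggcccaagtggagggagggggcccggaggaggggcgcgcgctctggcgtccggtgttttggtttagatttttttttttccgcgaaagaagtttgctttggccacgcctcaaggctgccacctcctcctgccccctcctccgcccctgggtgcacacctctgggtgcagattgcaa
Per1: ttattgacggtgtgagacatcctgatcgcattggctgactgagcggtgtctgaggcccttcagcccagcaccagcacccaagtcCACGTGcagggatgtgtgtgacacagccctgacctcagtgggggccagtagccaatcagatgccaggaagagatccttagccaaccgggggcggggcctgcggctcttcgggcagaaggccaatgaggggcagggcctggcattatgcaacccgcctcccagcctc
Nr1d1: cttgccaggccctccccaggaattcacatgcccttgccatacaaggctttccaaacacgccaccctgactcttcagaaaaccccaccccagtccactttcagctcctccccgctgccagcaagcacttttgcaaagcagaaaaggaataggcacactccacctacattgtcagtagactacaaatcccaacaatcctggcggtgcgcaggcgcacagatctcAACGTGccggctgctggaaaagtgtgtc
Per3: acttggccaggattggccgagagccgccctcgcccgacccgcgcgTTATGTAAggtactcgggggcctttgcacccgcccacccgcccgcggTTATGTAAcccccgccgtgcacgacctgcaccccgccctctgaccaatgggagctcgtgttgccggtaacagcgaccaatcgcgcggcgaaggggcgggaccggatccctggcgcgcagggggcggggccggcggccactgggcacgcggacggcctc

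In Sample 3, Dbp was 2.32 times as high as in Sample 1 and 2.22 times as high as in Sample 2, while Per1 was lower, at ratios of 0.545 and 0.515. Arntl and Clock were within 1.21 times of their level in the other samples. Between Sample 1 and Sample 2, 8 of the 9 detected genes stayed within the ratio limits by their brightest probe, and Per2 was lower in Sample 2, at a ratio of 0.489. Genes that peak in the opposite part of the day from Arntl differed from each other in direction on these arrays. The ratio limits were those of the study, at least 1.5 for higher and at most 0.66 for lower.

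Past these limits in Sample 3 over Sample 1 were Dbp and Nr1d2 as higher, 2 of 9 genes, where 13.6% of all 22851 detected genes were higher. Per1 and Per2 were lower, 2 of 9 genes, where 13.7% of all genes were lower. In Sample 3 over Sample 2, Dbp and Nr1d1 were higher, 2 of 9 genes beside 12.8% of all genes, and Per1 was lower, 1 of 9 beside 13.5%. In Sample 2 over Sample 1 no gene was higher, beside 9.94% of all genes, and Per2 was lower, 1 of 9 beside 9.87%. With only 9 genes, counts of 1 or 2 lie near these shares and are no result about the clock genes as a group. The study also required a Z-score of at least 2 or at most -2, which sets the log2 ratio against the spread of probes of like signal. No clock gene passed both limits by its brightest probe in any comparison. Of all genes, 3.05% passed as higher and 2.34% as lower in Sample 3 over Sample 1. These shares were 2.98% and 1.77% for Sample 3 over Sample 2, and 2.11% and 2.76% for Sample 2 over Sample 1.

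**Figure D1:**
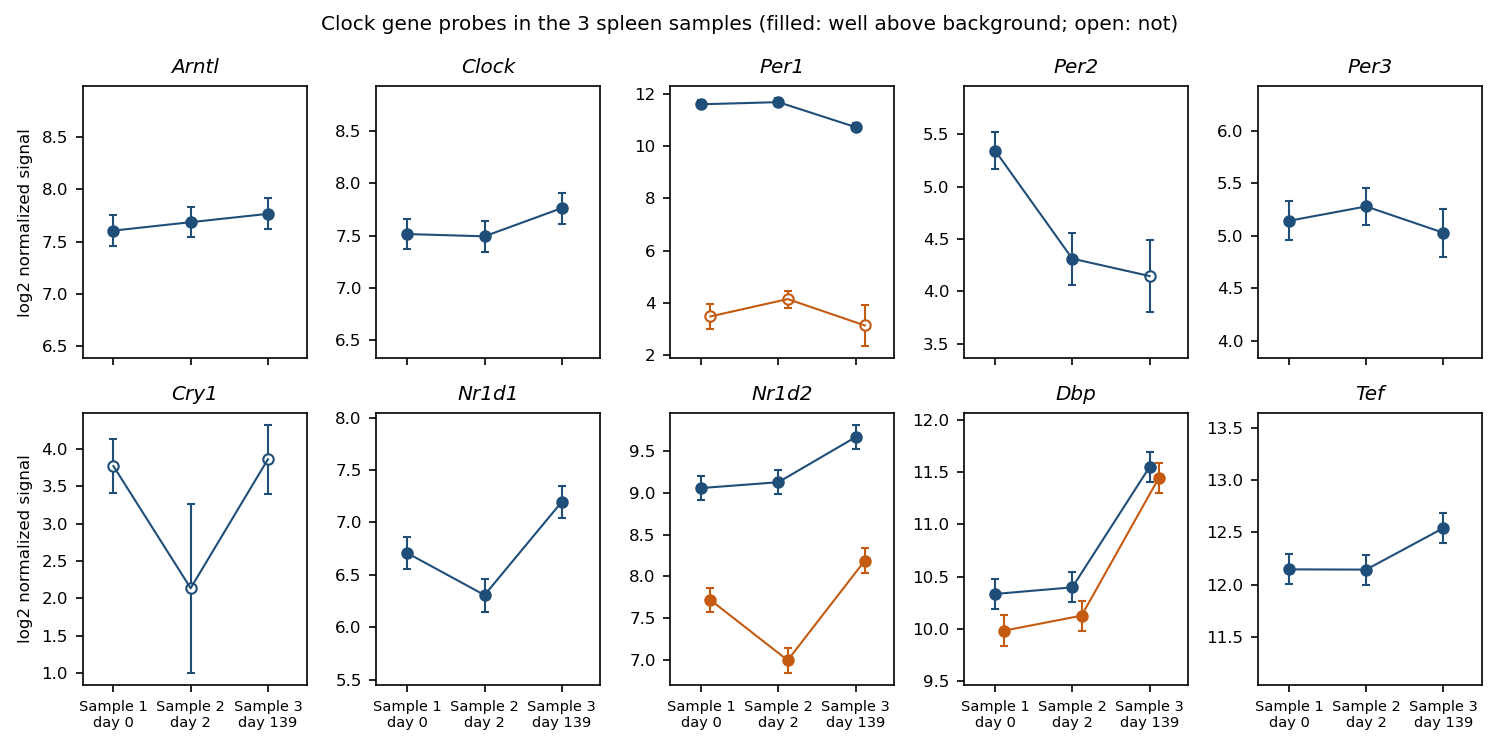
Log2 normalized signal (vertical axis) of each probe of the 10 clock genes in Samples 1, 2 and 3 (horizontal axis), with 1 array per sample. Blue marks the brightest detected probe of a gene and orange its other probe, filled points are well above background and open points are not, bars show the error of the spot as given by the scanner software, and vertical scales differ between panels. Both Dbp probes were highest in Sample 3, where the bright Per1 probe was lowest, and the Nr1d2 probes differed in Sample 2.

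Arntl, the activator without which the clock stops, had a normalized signal of 195, 206 and 217 in Samples 1, 2 and 3. The 3 values are ordered by day but differ by less than their spot error. The log2 ratio was 0.16 ± 0.21 in Sample 3 over Sample 1 and 0.08 ± 0.21 in Sample 3 over Sample 2. Here and below, the value after ± is the error of the 2 spots as the scanner software estimates it, which leaves out any difference between mice. Clock, the partner of ARNTL, measured 183, 180.2 and 217 in Samples 1, 2 and 3. Its log2 ratios over Samples 1 and 2 were 0.25 ± 0.21 and 0.27 ± 0.21, just past the spot error and inside the ratio limits. The probe of Arntl lies at chr7:120457261-120457320 and that of Clock at chr5:76641377-76641436 (mm9, as in the files).

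Per1, a repressor of the loop, was bright. Its signal was 3096, 3275 and 1688 in Samples 1, 2 and 3. Samples 1 and 2 differed by less than the spot error, and Sample 3 was well below both. The log2 ratio was -0.88 ± 0.20 over Sample 1 and -0.96 ± 0.20 over Sample 2, and 8.05% and 6.25% of all genes had a smaller ratio. The Z-scores were -1.42 and -1.63. This probe lies at chr11:68923364-68923423. A second probe, named for the sequence AK081813 and placed at chr11:68919895-68919954, was not well above background on any array, so it gives no ratio and no check of the first.

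Per2, the paralog of Per1, measured 40.6, 19.9 and 17.7 in Samples 1, 2 and 3, and in Sample 3 it was not well above background. Sample 1 was the highest, and Samples 2 and 3 were close. The log2 ratio of Sample 2 over Sample 1 was -1.03 ± 0.30, with a Z-score of -1.39. In Sample 3 Per2 was, on the normalized signals, at least 2.23-fold lower than in Sample 1 and at least 1.09-fold lower than in Sample 2. These are bounds against the lowest signal, 18.2, that a probe well above background had on the array of Sample 3. On the values as listed, the log2 ratio of Sample 3 over Sample 2 was -0.17 ± 0.42, within the spot error, and under spike-in scaling it was 0.21. So dim a probe depended on the background correction. With the normexp method the log2 ratio of Per2 was -0.40 in Sample 3 over Sample 1 and -0.35 in Sample 2 over Sample 1, inside the ratio limits.

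Per3, the third Period gene, was dim as well, at 35.4, 38.9 and 32.7 in Samples 1, 2 and 3. Its log2 ratios were -0.11 ± 0.29 and -0.25 ± 0.29 in Sample 3 over Samples 1 and 2, within the spot error. Cry1, whose protein represses ARNTL and CLOCK together with PER, was listed at 13.7, 4.4 and 14.5 and was not well above background on any array. No ratio is given for it. Its paralog Cry2 was measured, at 1017, 903 and 857, with ratios of 0.843 over Sample 1 and 0.949 over Sample 2.

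Nr1d1 measured 104.5, 79.2 and 147 in Samples 1, 2 and 3. All 3 samples were apart by more than the spot error, with Sample 2 the lowest and Sample 3 the highest. The log2 ratio was 0.89 ± 0.22 in Sample 3 over Sample 2, 0.49 ± 0.21 over Sample 1, and -0.40 ± 0.22 in Sample 2 over Sample 1. Its probe spans 503 bases of genome at chr11:98630526-98631028, so it crosses a splice junction and reads spliced RNA.

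Nr1d2, the second REV-ERB receptor, had 2 probes that differed in Sample 2. The brighter one (chr14:19036568-19036627) measured 533, 559.9 and 814 in Samples 1, 2 and 3. The other (chr14:19037253-19037312) measured 210.5, 128 and 292. By both probes Sample 3 was the highest, with ratios of 1.53 and 1.39 over Sample 1, on either side of the limit of 1.5. Sample 2 was level with Sample 1 by the brighter probe (log2 ratio 0.07 ± 0.20) and lower by the other (-0.72 ± 0.21, a ratio of 0.607, which would count as lower). By the second probe Nr1d2 followed the order of Nr1d1, with Sample 2 lowest, and by the first it did not. The ratio of Sample 3 over Sample 2 was 1.45 by the brighter probe and 2.29 by the other, which would count as higher.

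Dbp, a clock output gene with a wide daily swing in many tissues, had 2 probes with the same order of samples. The brighter one (chr7:52965322-52965381) measured 1292, 1349.8 and 2991 in Samples 1, 2 and 3. The other (chr7:52965461-52965520) measured 1014, 1119 and 2783. Samples 1 and 2 did not differ beyond the spot error by either probe, and Sample 3 was above both. By the brighter probe the log2 ratio was 1.21 ± 0.20 over Sample 1 and 1.15 ± 0.20 over Sample 2. The Z-scores were 1.95 and 1.90, just short of the limit. By the other probe the log2 ratios were 1.46 ± 0.20 and 1.31 ± 0.20 and the Z-scores 2.38 and 2.30, past both limits. By its brighter probe, 95.0% of all genes had a smaller ratio than Dbp over Sample 1 and 94.8% over Sample 2.

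Tef, in the same family as Dbp, measured 4539, 4531 and 5965 in Samples 1, 2 and 3 at a probe at chr15:81657221-81657280. Samples 1 and 2 were level, and the log2 ratio of Sample 3 was 0.39 ± 0.20 over Sample 1 and 0.40 ± 0.20 over Sample 2, inside the ratio limits. Dbp therefore exceeded Tef by 0.86 ± 0.29 in the log2 ratio over Sample 1 and by 0.81 ± 0.29 in that over Sample 2. These 2 differences, and the next ones, use the signals before normalization between arrays, because scaling a whole array cancels in them.

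**Figure D2:**
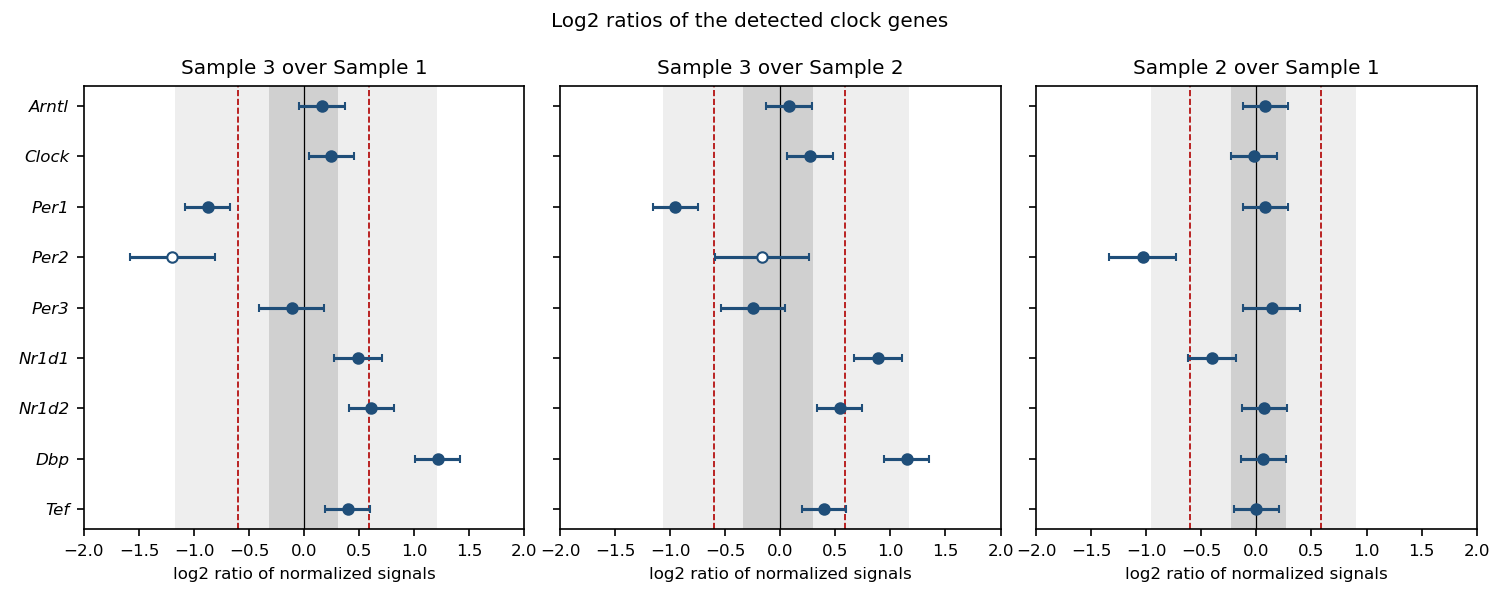
Log2 ratio of normalized signals (horizontal axis) of the 9 detected clock genes (rows) in the 3 comparisons, by the brightest detected probe. Bars show the spot error, the open points are Per2 where it was not well above background in Sample 3, dashed lines mark ratios of 1.5 and 0.66, and grey bands hold the central 90% and 50% of all 22851 genes. Dbp and Per1 lie on opposite sides in the left and middle panels, and by these probes only Per2 lies past a limit in the right one; under spike-in scaling Per3 in the left and middle panels and Per2 in the middle one change sign.

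Of the pairs compared among the 10 genes, Dbp and Per1 were the furthest apart. Before normalization the log2 ratio of Dbp exceeded that of Per1 by 2.08 ± 0.29 in Sample 3 over Sample 1 and by 2.11 ± 0.29 in Sample 3 over Sample 2, or 4.22-fold and 4.31-fold. In Sample 2 over Sample 1 the difference was -0.03 ± 0.29. Arntl lay between them, with differences in log2 ratio over Sample 1 of 1.06 ± 0.29 for Dbp minus Arntl and -1.02 ± 0.29 for Per1 minus Arntl. Arntl and Clock differed by -0.08 ± 0.29 and -0.19 ± 0.29 in the 2 comparisons with Sample 3, within the spot error. These pairs were chosen with the values known.

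The 7 genes that peak in the opposite part of the day from Arntl were split in Sample 3. They need not share a common peak hour, and the part of the hour of collection in the split was not tested. Over Sample 1, Nr1d1, Nr1d2, Dbp and Tef had log2 ratios above 0 and Per1, Per2 and Per3 below 0, and the same 4 and 3 genes were above and below 0 over Sample 2, although under spike-in scaling Per3 was above 0 in both comparisons and Per2 in the latter. Their median log2 ratio was 0.39 over Sample 1 and 0.40 over Sample 2, beside 0.20 and 0.17 for Arntl and Clock. The median of all genes was -0.00 and -0.03. In Sample 2 over Sample 1 the medians were 0.06 for the 7 genes, 0.03 for Arntl and Clock and 0.02 for all genes.

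Quantile normalization forces the arrays to share 1 distribution. Scaling to the spike-in RNA instead raised the median of all genes to 0.36 in both comparisons with Sample 3. Of all genes, 30.9% were then higher and 7.12% lower in Sample 3 over Sample 1 (31.4% and 5.93% in Sample 3 over Sample 2). The clock genes past the limits became 5 higher (Clock, Nr1d1, Nr1d2, Dbp and Tef) and 1 lower (Per2), in place of 2 and 2. In Sample 3 over Sample 2 they became 5 higher and 0 lower, in place of 2 and 1. Per1 was still below 0, at -0.49 and -0.58, and past the limit in neither comparison. Relative to the shifted median, Per1 was at -0.85 and -0.94, Dbp at 1.23 and 1.17, and Arntl at 0.17 and 0.12, and no clock gene changed direction.

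**Figure D3:**
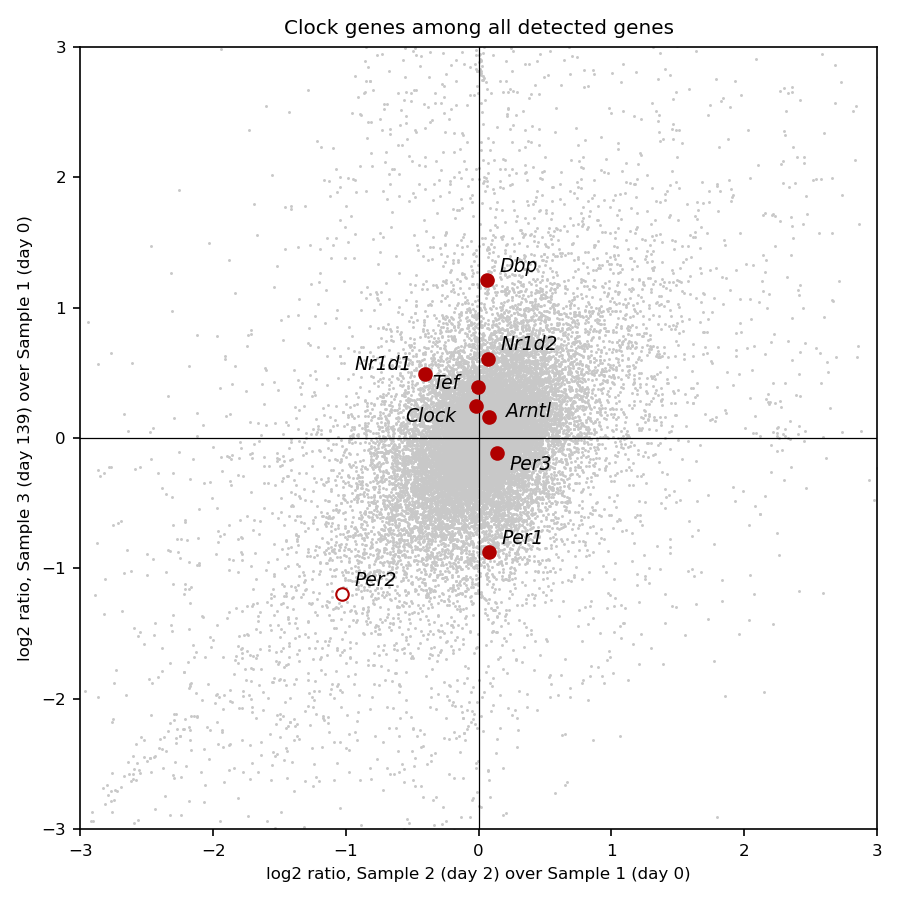
Log2 ratio of Sample 3 over Sample 1 (vertical axis) against that of Sample 2 over Sample 1 (horizontal axis) for the detected genes (grey) and the 9 detected clock genes (red, Per2 open because it was not well above background in Sample 3). Both axes share Sample 1, so they are not independent, and 457 of 22851 genes lie outside the axes. Dbp and Per1 lie above and below the centre near 0 on the horizontal axis, and Per2 at the lower left.

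A further 21 genes of the clock and its outputs were listed, of which 19 were detected (Npas2 and Fbxl21 were not). In Sample 3 over Sample 1, 1 was higher and 6 were lower, and in Sample 3 over Sample 2, 1 was higher and 3 were lower. In Sample 2 over Sample 1, 0 were higher and 4 lower. Of all genes, 13.6% were higher and 13.7% lower in the first of these comparisons, 12.8% and 13.5% in the second, and 9.94% and 9.87% in the third. The 6 lower genes include Ciart and Rorb, which were not well above background in Sample 3. The median log2 ratios of the 19 genes as listed were -0.25, -0.18 and -0.06, beside -0.00, -0.03 and 0.02 for all genes.

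Nfil3, which represses at the D-boxes where DBP and TEF activate, measured 806, 467 and 256 in Samples 1, 2 and 3. The 3 samples were clearly ordered, and the ratio of Sample 3 was 0.318 to Sample 1 (Z-score -2.48) and 0.549 to Sample 2. The log2 ratio of Dbp exceeded that of Nfil3 by 2.87 ± 0.29 and 1.99 ± 0.29 in these comparisons. Hlf, the remaining PAR bZIP gene, measured 116, 87.0 and 116, and was inside the limits.

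Usp2, a deubiquitinase under clock control, had the same order as Nfil3, at 177, 98.9 and 66.1, with a ratio of 0.373 and a Z-score of -2.08 in Sample 3 over Sample 1. Nampt, the rate-limiting enzyme of NAD salvage, measured 749, 495 and 438, with a ratio of 0.585 over Sample 1. Noct, a clock-controlled gene named Ccrn4l on the array, measured 6297, 8580.2 and 4968, and was lower in Sample 3 over Sample 2, at a ratio of 0.579. Wee1, a cell cycle kinase under clock control, measured 286, 347 and 241 and was inside the limits. The signs of the smaller ratios depend on the scaling. Under spike-in scaling, tried for these genes after seeing the data, 8 of 17 of the other clock genes changed sign in Sample 3 over Sample 1 and 8 of 17 in Sample 3 over Sample 2. Among them were, by log2 ratio, Wee1 (0.13) and Noct (0.03) over Sample 1 and Nampt (0.22) over Sample 2, while Usp2 stayed below 0, at -1.08 and -0.20.

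Bhlhe41 and Bhlhe40, the Dec repressors that compete at E-boxes, differed from each other. Bhlhe41 was dim and highest in Sample 3, at 19.2, 23.5 and 37.6, with ratios of 1.96 over Sample 1 and 1.60 over Sample 2. Bhlhe40 was highest in Sample 1, at 475, 302 and 323, with a ratio of 0.635 in Sample 2 over Sample 1. Ciart, a repressor named Gm129 on the array, measured 23.2 and 18.8 in Samples 1 and 2 and was at least 1.28-fold lower in Sample 3 than in Sample 1. Of the receptors that oppose the REV-ERBs, Rora measured 93.6, 122 and 106.7 and stayed inside the limits. Rorb was too dim for a fold and was counted among the lower genes on the values as listed.

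Timeless, better known for its part in DNA replication, measured 1966, 2518 and 1267, with ratios of 0.645 and 0.503 in Sample 3 over Samples 1 and 2. The kinases and degradation factors (Csnk1d, Csnk1e, Gsk3b, Btrc and Fbxw11) and the activator Arntl2 were inside the limits in every comparison.

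**Figure D4:**
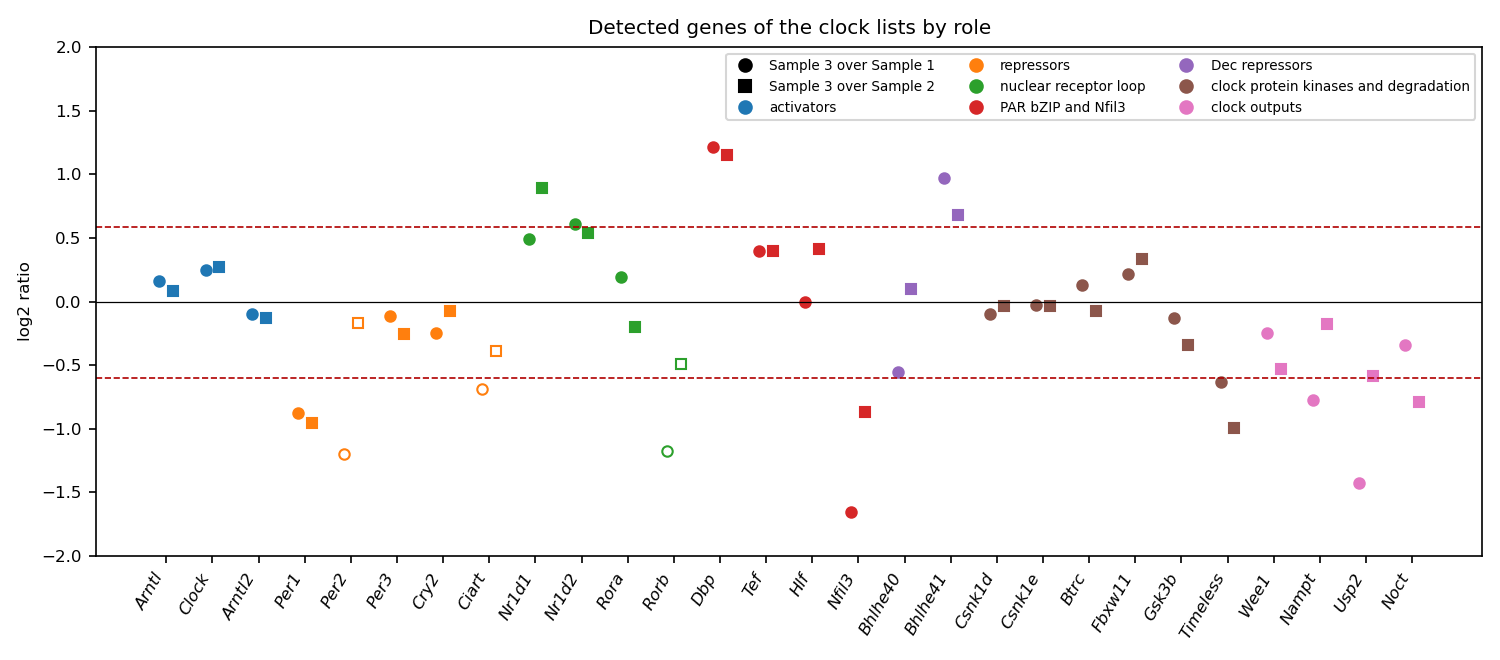
Log2 ratio (vertical axis) of each detected gene of the clock lists (horizontal axis), colored by role, in Sample 3 over Sample 1 (circles) and over Sample 2 (squares). Open symbols were not well above background in 1 or both samples of the comparison, and dashed lines mark ratios of 1.5 and 0.66. Dbp is the highest circle and Nfil3 the lowest.

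Per1 and several other clock genes also respond to stress hormones and handling, so lists of glucocorticoid-responsive and immediate early genes were set beside them. Of 6 glucocorticoid-responsive genes, 4 were lower in Sample 3 over Sample 1, 1 in Sample 3 over Sample 2 and 3 in Sample 2 over Sample 1, with median log2 ratios of -1.28, -0.21 and -0.46. Of all genes, 13.7%, 13.5% and 9.87% were lower in these comparisons and 13.6%, 12.8% and 9.94% higher. These shares also stand beside the counts of the lists below. Fkbp5, an inhibitor of the glucocorticoid receptor, measured 4851, 1378 and 1468 in Samples 1, 2 and 3. Zbtb16, a transcription factor, measured 542.5, 89.0 and 88.7. Both were high in Sample 1 alone, whereas Per1 was high in Samples 1 and 2. Klf9, a transcription factor with an order between these, measured 1193, 779 and 524. Dusp1, a phosphatase of MAP kinases, measured 1542.5, 1247 and 599, with ratios of 0.388 and 0.481 in Sample 3 over Samples 1 and 2, and of these 4 genes it was the one past the limits in the same comparisons as Per1. The rest of the list was inside the limits in every comparison, with Tsc22d3 at 9030, 8163 and 6079 and Sgk1 at 1140, 1113 and 1117.

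Of 6 immediate early genes, 4 were lower in Sample 3 over Sample 1, namely Junb (ratio 0.408), Fos (0.529), Ier2 (0.615) and Egr1 (0.624). Over Sample 2, Fosb was lower (0.564) and Nr4a1 higher (1.67). In Sample 2 over Sample 1, Junb (0.453), Fos (0.590) and Ier2 (0.628) were lower. Junb, Fos and Ier2 were thus highest in Sample 1, as Per2 was, with Samples 2 and 3 close to each other. The median log2 ratios of the list were -0.69, -0.16 and -0.59. Of 6 acute inflammation genes, 6 were lower in Sample 3 over Sample 1, 4 lower and 1 higher in Sample 3 over Sample 2, and 5 lower and 1 higher in Sample 2 over Sample 1, on the values as listed. Of these, Ptgs2 was not well above background in Samples 2 and 3, nor Cxcl1 in Sample 3. With such genes at their bound, and Ptgs2 left out of Sample 3 over Sample 2, where it has no fold, the medians were -3.41, -1.16 and -2.20. The part of these genes in the ratios of Per1 and Per2 was not tested.

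Markers of several cell types also differed between the spleens, and in whole tissue a difference in the number of cells of a type cannot be told apart from one in RNA per cell. All 6 B cell markers and all 6 T cell, erythroid, red pulp macrophage and neutrophil markers were well above background in every sample, so that the markers of the labelled tissue were present. The B cell markers had a median log2 ratio of 1.10 in Sample 3 over Sample 1 and 1.16 over Sample 2, with 5 of 6 higher in each, and their summed signal was 46757, 46062 and 86807 in Samples 1, 2 and 3. This order of the sum is that of Dbp, level in Samples 1 and 2 and higher in Sample 3. The brightest markers weigh most in a sum. Single B cell markers ranged from a ratio of 0.770 (Ms4a1) to 1.47 (Cd79a) in Sample 2 over Sample 1. Cr2 was inside the ratio limits in Sample 3 over Samples 1 and 2, at 1.17 and 1.25. The T cell markers had medians of 0.90 and 0.55, with 6 and 2 of 6 higher, and summed signals of 12705, 17008 and 23565. The erythroid markers had medians of -0.79 and -0.66, with 4 and 3 of 6 lower, and summed signals of 64637, 77467 and 48621. Cell cycle genes had medians of -0.72 and -0.80, with 5 and 6 of 6 lower, and summed signals of 61714, 61325 and 33517. The order of the cell cycle sums is that of Per1, level in Samples 1 and 2 and lower in Sample 3. Single cell cycle genes ranged from a ratio of 0.903 (Mki67) to 1.29 (Tk1) in Sample 2 over Sample 1.

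The red pulp macrophage markers had medians of 0.04 and 0.02, and summed signals of 89304, 86602 and 89558. The neutrophil markers had medians of 0.41 and 0.20, and their summed signal was 209825, 74680 and 87632. They were split in Sample 3 over Sample 1. S100a8 and S100a9, which make up most of the sum, were high in Sample 1, with ratios of 0.288 and 0.399. Ngp, Camp, Ltf and Elane went the other way, at 1.30, 1.64, 1.36 and 1.36. Of 6 beta cell markers, Pdx1 and Slc2a2 were not well above background on any array. The other 4, with G6pc2 at its bound in Sample 3, had medians of -0.99 and -1.99 and summed signals of 61436, 96392 and 32025. The exocrine pancreas markers were dim, with summed signals of 85.4, 142 and 678. Of the 6, 4 were not well above background in Samples 1 and 2, and these 4 were at least 2.24-fold to 4.92-fold higher in Sample 3 than in Sample 1. With them at their bound the medians were 2.05 and 1.85. The part of each cell type in the ratios of the clock genes was not tested.

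**Figure D5:**
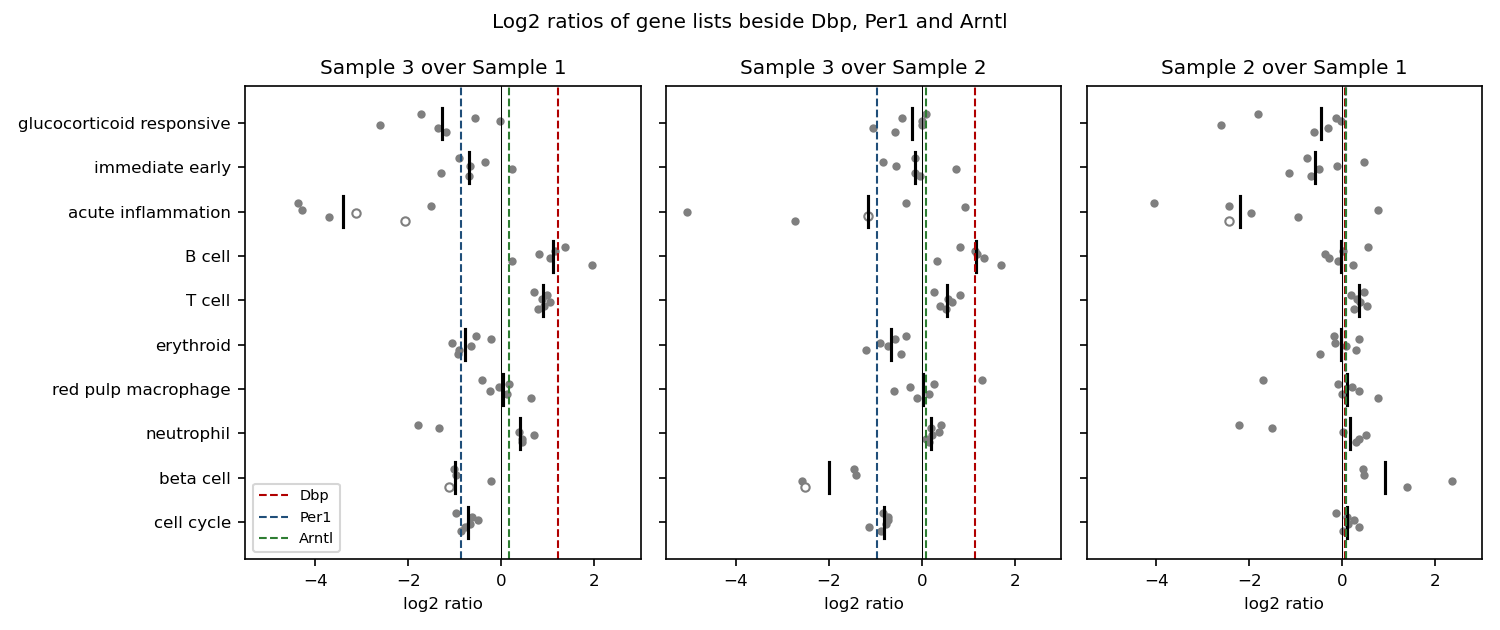
Log2 ratio (horizontal axis) of each detected gene (points) of 10 gene lists (rows) in the 3 comparisons, with the median of each list as a black bar. Open points were not well above background in 1 sample of the comparison and are drawn at their bound, and genes without a fold are left out. Dashed lines give the ratios of Dbp, Per1 and Arntl. In the left and middle panels the line of Dbp lies beside the B cell markers. That of Per1 lies beside the erythroid markers and cell cycle genes. It is about as near to the beta cell median in the left panel (-0.99) and the acute inflammation median in the middle one (-1.16). In the right panel all 3 lines lie near 0.

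Genes with the most similar pattern were searched among 19800 genes that were well above background on all 3 arrays, by the distance between their log2 ratios of Sample 2 and of Sample 3 over Sample 1. Nearest to Dbp were Gpr174 at a distance of 0.02, Cd72 at 0.02 and Gstt2 at 0.04, and 16 genes lay within 0.1. Gpr174 encodes a receptor of lymphocytes, Cd72 a B cell surface protein and Gstt2 a glutathione transferase. The rest of the 16 genes are not named here, and no cell type is read from this search. Nearest to Arntl were D19Ertd737e, Gm7742 and ENSMUST00000133910, at distances of 0.004 to 0.006, and 812 genes lay within 0.1. A pattern over 3 samples is a weak measure of likeness, the more so for a gene such as Arntl that hardly varied.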

How the data were processed

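Gene expression was measured in Samples 1 to 3 with 1 array per condition. For each array the authors deposited scanner output with background-subtracted intensity values on a linear scale. They also deposited a table of intensity values quantile normalized with Bioconductor, whose 3 columns have the same median of 22.0. The file headers name Feature Extraction 10.7.1.1 and the labels 9.5.1.1, and the labels and the methods name different RNA purification and labeling kits.

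Control and outlier spots were left out, spots of a probe were averaged, and 55679 probes were quantile normalized with a floor of 1. This gave the members' deposited values to within 0.001 on the log2 scale. Quantile normalization sets the 3 distributions equal, so a difference in total mRNA cannot be seen. Each gene was taken by its brightest probe well above background on at least 1 array. A gene was counted as higher at a ratio of at least 1.5 and lower at a ratio of at most 0.66, also with a Z-score of at least 2 or at most -2 (the log2 ratio over the SD of the 1000 detected probes nearest in mean signal). The Z-score formula of the study is not given in the sources used here. No p-value was computed. With 3 arrays, their number limits the precision.

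The members and gene lists were chosen with earlier results of these data known, and 2 genes of the clock lists are not reported here, for a reason unrelated to their values, and enter no count of those lists. All 10 members, every other gene of the clock lists, the glucocorticoid-responsive and immediate early genes past the ratio limits where Per1 or Per2 was, and the 3 genes nearest in pattern to Arntl and to Dbp are named. The alternatives were the normexp method on mean and background signals (limma 3.58.1 in R 4.3.3, offset 50), scaling to 7 spike-in controls with a signal of at least 100 or to the 75th percentile, the deposited values, a floor at the lowest detected signal, other detection filters, outlier spots kept, the median over probes, other Z-score spreads, and ratio limits of 2 and 0.5. Python 3.11.15, numpy 2.4.6 and pandas 2.3.3 were used, and the calls were tested on simulated data.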

Additional observations from a re-analysis of the deposited data

How the results depend on the processing

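The median of the 7 genes that peak opposite to Arntl moved under spike-in scaling alone, to 0.73 in Sample 3 over Sample 1 and 0.72 in Sample 3 over Sample 2. The count of clock genes past the ratio limits in Sample 3 over Sample 1 was 4. It was 2 with normexp (Dbp and Per1) and 2 with ratio limits of 2 and 0.5 (Dbp and Per2). It was 6 with spike-in scaling, without Per1, 3 with the median over probes and 3 with detection required on all 3 arrays. In Sample 3 over Sample 2 the count was 3, and 5 with spike-in scaling and 1 with limits of 2 and 0.5 (Dbp). It was 4 with the median over probes and 4 with no filter on dim probes. In Sample 2 over Sample 1 it was 1, and 0 with normexp, 0 when a probe had to be well above background on all 3 arrays, and 2 with no filter on dim probes (Per2 and Cry1). With the Z-score limits added it was 0, with Dbp alone raising it to 1 in Sample 3 over Sample 1 under spike-in scaling and the median over probes, and to 1 in Sample 3 over Sample 2 under normexp, 75th percentile scaling, spike-in scaling, the median over probes and a window of 250 probes. A scaled median absolute deviation gave 2 in both comparisons (Dbp and Per1). The share of all genes that passed is not given here for each alternative, so these counts are no result about the clock genes as a group. The cause of the changes in count was not tested, apart from the shift of the spike-in scaling, the stricter limits and the filters themselves.

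Of 240 values of the chosen clock genes under the alternatives, 219 moved by less than their spot error and 21 by more. Several alternatives, such as the floor, the filters and the deposited values, could hardly move a single gene, so this count says little about robustness. Under spike-in scaling, every detected clock gene but Per2 moved by more than its spot error in both comparisons with Sample 3. The log2 ratio of Dbp ranged from 1.16 to 1.59 in Sample 3 over Sample 1 and from 1.12 to 1.52 over Sample 2, and that of Per1 from -0.88 to -0.49 and from -0.99 to -0.58. Under the median over probes, Nr1d2 was at -0.33 in Sample 2 over Sample 1. No paired analysis was possible because each condition had 1 sample. Replicate spots of other probes differed by a median SD of 0.18 to 0.21 (log2) at signals of 15 to 80, where Per2 and Per3 lie, and by 0.05 to 0.06 above 500, where Per1, Dbp and Tef lie.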
